A study of Mus musculus with 77 samples.

Results

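Blood miRNAs of C57BL/6Crl (B6) mice that were susceptible to chronic social defeat stress (CSDS) were compared with those of B6 control mice. The libraries were chosen by the table of blood miRNA log2 values and the phenotype of the mouse, and were 5 susceptible and 5 control libraries of 25 blood miRNA libraries and of 77 samples in all. All 299 miRNAs of the table were compared. In CSDS a mouse is attacked daily by an unfamiliar aggressor and lives beside it, separated by a divider, for the rest of the day. A later social test split the defeated mice: those that avoided the target were classed as susceptible and the rest as resilient. Control mice lived beside other mice behind a divider and were not attacked. Susceptible and control mice therefore differed both in defeat and in the behaviour by which the defeated mice were classed. The remaining blood libraries came from 5 resilient B6 mice, 5 control DBA/2Crl (D2) mice and 5 susceptible D2 mice. All were male and 8 weeks old, the labels name no engineered allele or drug, and blood was taken 6 to 8 days after the last defeat. Each library came from 1 mouse of an inbred strain, and the mice are numbered here only to name them.

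A miRNA is a short RNA that loads into an Argonaute protein and guides it to messenger RNAs, most often through the seed, bases 2 to 8 from its 5′ end. The guided complex lowers the stability or the translation of its targets, and miRNAs with the same seed share many of them. Whole blood carries miRNAs of red cells, platelets and white cells, along with a small fraction released into plasma by organs such as the liver. In such bulk RNA, fewer cells of a type and less RNA per cell cannot be told apart.

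The mature sequences of the miRNAs on which the comparison turned are given here from RefSeq (mouse build GRCm38.p6), which had an entry for 253 of the 299 miRNAs, and all coordinates are of this build. Capitals mark the seed. The first 4 lie within 4947 bases on the minus strand of the X chromosome (chrX:53049403-53054349), between annotated genes, and 3 of them were called higher in susceptible mice.
miR-503-5p: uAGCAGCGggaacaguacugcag
miR-322-5p: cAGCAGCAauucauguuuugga
miR-351-5p: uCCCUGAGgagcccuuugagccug
miR-542-5p: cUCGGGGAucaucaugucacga

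The next set shows called miRNAs beside relatives that carry the same seed in the same blood. The members of the miR-15 family are shown with miR-322-5p in mind, miR-7b-5p because it differs from miR-7a-5p at a single base, and miR-181d-5p for the same reason with miR-181b-5p.
miR-15b-5p: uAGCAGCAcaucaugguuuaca
miR-16-5p: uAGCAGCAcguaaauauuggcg
miR-7a-5p: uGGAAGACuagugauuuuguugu
miR-7b-5p: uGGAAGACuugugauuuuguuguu
miR-181b-5p: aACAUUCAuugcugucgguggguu
miR-181d-5p: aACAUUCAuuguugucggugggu

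The remaining called miRNAs with an entry were the following, and miR-122-5p was also called.
miR-148a-5p: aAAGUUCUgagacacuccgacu
miR-223-5p: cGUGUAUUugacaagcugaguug
miR-592-5p: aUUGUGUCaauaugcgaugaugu
miR-5620-5p: aCGAGGCAggggcuuugacugug
miR-5100: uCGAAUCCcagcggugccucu
miR-3112-5p: aCAUAGAAaaggcagucugca

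The values are log2 CPM, the reads of a miRNA scaled to the size of its library, and whole read counts were recovered from them. The 10 libraries held between 7073460 and 10113657 reads on the listed miRNAs. Control libraries averaged 8147678 reads (SD 772503, n = 5) and susceptible libraries 8689617 reads (SD 1408865, n = 5), and the difference was within the spread between mice (two-sided exact permutation test, p = 0.437). Of the 299 names, 254 were of the 5p strand of a hairpin, 17 of the 3p strand and 28 of no stated strand. The 3p strands that dominate some hairpins, such as miR-223-3p, have no row here, and whether this comes from how reads were named or counted was not tested. Shares of reads, orders of abundance and which listed markers were measured therefore hold for the listed names alone.

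The libraries carried the abundant miRNAs of whole blood. The 10 most abundant miRNAs took 87.1% of the reads in control mice (SD 0.320, n = 5) and 87.1% in susceptible mice (SD 0.321, n = 5). miR-451a, made in developing red cells, took 33.3% ± 4.57 of the reads in controls and 33.1% ± 3.37 in susceptible mice (SD, n = 5 each). In order of the control level it was followed by miR-21a-5p, let-7i-5p, let-7g-5p, miR-30a-5p, miR-144-5p, miR-30e-5p, miR-93-5p, miR-15b-5p and miR-30d-5p. None of these 10 was called, and the largest difference among them was a log2 change of -0.18 for miR-30e-5p (limma, adjusted p = 0.980, smallest unadjusted p among the 10 = 0.332).

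Some libraries stood apart in transcripts of another tissue. In the mRNA libraries made from the blood of the same mice, 9 genes known from salivary glands, among them Bpifa2, Amy1, Klk1b26 and Smr3a, were either nearly unread or clearly present; this list was chosen after its values were seen. Their summed level was 0.841, 2.10, 355, 0.860 and 609 CPM in controls 1 to 5. In susceptible mice 1 to 5 it was 659, 0.202, 640, 1429 and 429 CPM. Thus 2 of 5 control and 4 of 5 susceptible mice had more than 100 reads on the 9 genes, as had 1 of 5 resilient, 3 of 5 D2 control and 5 of 5 D2 susceptible mice. In the libraries of all 25 mice that stayed below that mark, the most reads were 28, and the fewest above it were 314. The most abundant gene was Bpifa2 in control 3 (181 CPM) and susceptible 1 (366 CPM), and Klk1b26 in control 5, susceptible 3, 4 and 5. Bpifa2 was at 0 reads in control 1, 2 and 4 and in susceptible 2. The single genes did not all run together, since Klk1b26, Klk1b9 and Klk1b22 were at 0 in susceptible 1. Each miRNA result was therefore also computed with the presence of these transcripts as a term of the fit, an alternative added after the data had been seen.

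Susceptible 1 stood apart in a miRNA as well. miR-7b-5p had 1553 reads there (7.70 log2 CPM) against 10 to 27 reads in the other 4 susceptible mice and 15 to 37 reads in the 5 controls. Resilient 1, the mouse with the highest level of salivary gland transcripts among all B6 mice (2634 CPM), had 4679 reads of miR-7b-5p. The other 4 resilient mice had 18 to 32 reads. The summed level did not run with miR-7b-5p throughout, since susceptible 4, with 1429 CPM of salivary gland transcripts, had 19 reads of miR-7b-5p. Single genes of the list differed in this. Bpifa2 was highest among B6 mice in resilient 1 (839 CPM) and susceptible 1 (366 CPM), and was 106 CPM in susceptible 4. Klk1b26 was 523 CPM in resilient 1, 0 CPM in susceptible 1 and 457 CPM in susceptible 4. A link between these transcripts and miR-7b-5p was not tested.

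A miRNA was called when limma, fitted to all 25 libraries in 5 groups, gave an unadjusted p under 0.05 and a difference of at least 1.2-fold. Susceptible mice differed from controls in 12 of 299 miRNAs by this rule (4.01%), 8 higher (2.68%) and 4 lower (1.34%). The number was 25 with sample weights, 5 with only the miRNAs at a mean log2 value of at least 4, where fewer were tested, and 8 to 13 with a mouse left out. A p threshold of 0.05 passes 5% of features when none differ. No miRNA passed an adjusted p of 0.05 (limma, Benjamini-Hochberg over 299 miRNAs; 12 had an unadjusted p under 0.05), and the same held in every alternative that was run. The median log2 change over all 299 miRNAs was 0.06 and 179 of them (59.9%) had the higher mean in susceptible mice. Together the 12 took 0.0263% of the reads in controls and 0.0295% in susceptible mice. Of the 12, 6 averaged under 50 reads in both groups, as did 140 of all 299 miRNAs (46.8%). All 12 had the same direction among the mice whose name code was EC3 (2 control and 2 susceptible) and among those coded EC4 (3 and 3), as had 150 of all 299 miRNAs (50.2%); the labels do not say what the codes stand for. The 12 were chosen on the same 10 mice, so this count is largely set by that choice. With the salivary gland term 9 of the 12 remained called.

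**Figure D1:**
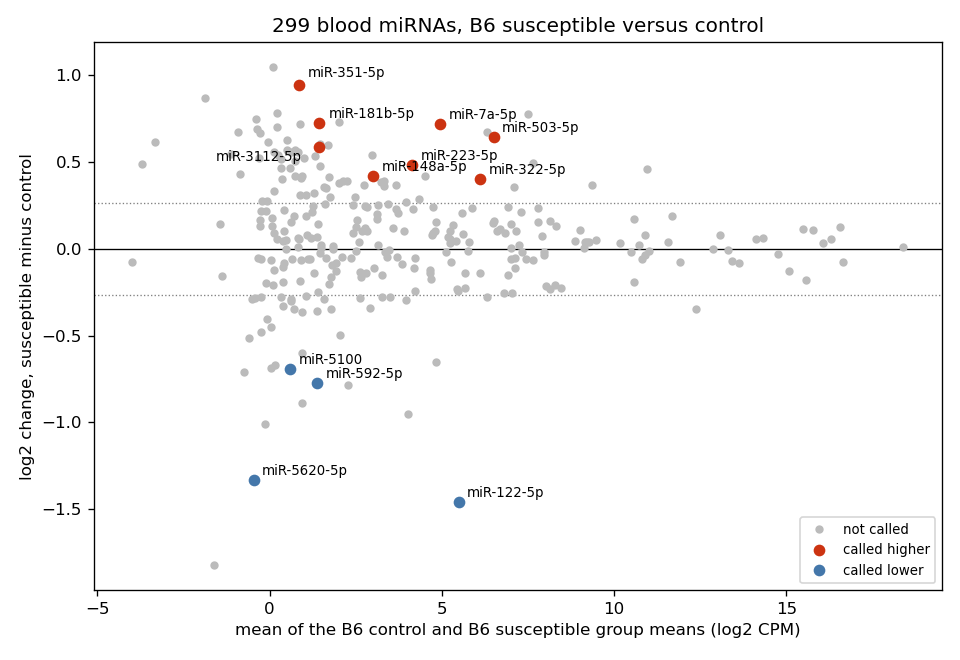
Log2 change from control to susceptible B6 mice (y axis) against the average of the control and susceptible means in log2 CPM (x axis) for 299 miRNAs, with dotted lines at 1.2-fold. Called miRNAs are named and lie at low to middle levels, while the 10 most abundant miRNAs lie near 0.

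Of the 8 miRNAs called higher, 3 belong to an X-linked cluster. miR-322 and miR-503 are processed from 1 host transcript that is known from muscle differentiation and growth arrest, and in the mouse miR-351 and miR-542 are encoded beside them. All 4 measured members of the cluster, of 13 listed, had the higher mean in susceptible mice, beside 59.9% of all miRNAs, and 3 of them were called higher, beside 2.68% of all. Their median log2 change was 0.62, beside 0.06 for all miRNAs. The list was chosen with earlier results of these data known, and its members are encoded beside each other. These counts are therefore partly set by that choice and are given as a description. The hairpins lie at chrX:53053984-53054054 (miR-503), chrX:53054255-53054349 (miR-322) and chrX:53049403-53049487 (miR-542), and the mature miR-351-5p at chrX:53053315-53053338.

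miR-503-5p had log2 CPM of 5.97, 6.04, 6.39, 6.49 and 6.00 in controls 1 to 5 and 6.95, 6.75, 6.93, 6.96 and 6.53 in susceptible mice 1 to 5. Every susceptible mouse lay above every control mouse, though susceptible 5 only just exceeded control 4. The mean rose from 6.18 ± 0.24 to 6.82 ± 0.18 (SD, n = 5 each), a 1.56-fold difference (log2 change 0.64, SE 0.20; limma p = 0.00433, adjusted p = 0.650; two-sided exact permutation test p = 0.00794, the smallest that 5 against 5 mice can give). The counts behind it averaged 571.2 reads in controls and 946.4 reads in susceptible mice. The log2 difference was 0.84 within EC3 and 0.51 within EC4. It was 0.65 among the mice with salivary gland transcripts and 0.58 among those without, and miR-503-5p was called in all 23 alternatives.

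miR-322-5p had log2 CPM of 5.78, 6.03, 5.85, 6.10 and 5.77 in controls and 6.79, 6.29, 6.24, 6.27 and 5.96 in susceptible mice. Susceptible 1 to 4 lay above the highest control and susceptible 5 lay within the control range. The difference was a log2 change of 0.40 (SE 0.18; limma p = 0.0349, adjusted p = 0.980; two-sided exact permutation test p = 0.0238). The call was lost in 5 of 23 alternatives, namely with no scaling beyond the library total (log2 change 0.39) and without control 1 (0.37), control 3 (0.39), control 5 (0.37) or susceptible 1, the highest of all (0.28).

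miR-351-5p was counted with 6 to 32 reads per library. It measured, in log2 CPM, -0.07, 1.30, 0.39, 0.46 and -0.20 in controls and 1.88, 0.42, 1.69, 1.71 and 0.90 in susceptible mice. Susceptible 1, 3 and 4 lay above all controls, and susceptible 2 and 5 lay among them. Between the groups the log2 change was 0.94 (SE 0.38; limma p = 0.0188, adjusted p = 0.939; two-sided exact permutation test p = 0.0476). It was 1.45 among the mice with salivary gland transcripts and -0.14 among those without, where 3 controls were set against susceptible 2. The call was lost without control 5 (log2 change 0.80) and without susceptible 1 (0.80).

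miR-542-5p missed the call. In log2 CPM it read 0.87, 1.23, 1.98, 1.67 and 1.18 in controls and 1.98, 1.73, 1.65, 2.41 and 2.14 in susceptible mice, so that the groups overlapped: controls 3 and 4 lay above the lowest susceptible mouse, susceptible 3. This gave a log2 change of 0.60 (SE 0.29; limma p = 0.0503, adjusted p = 0.980; two-sided exact permutation test p = 0.0476). It was called in 7 of 22 alternatives, namely without control 3 (0.74), control 4 (0.67), susceptible 2 (0.66) or susceptible 3 (0.68), and, with the log2 change unaltered, without the mean-variance trend, with the name code as a block and in the fit to the B6 control and susceptible libraries alone. The share of all miRNA reads taken by the 4 miRNAs together was 0.0132% ± 0.00215 in controls and 0.0192% ± 0.00367 in susceptible mice (SD, n = 5 each). This share restates the calls of its members in the same mice and is given as a description.

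**Figure D2:**
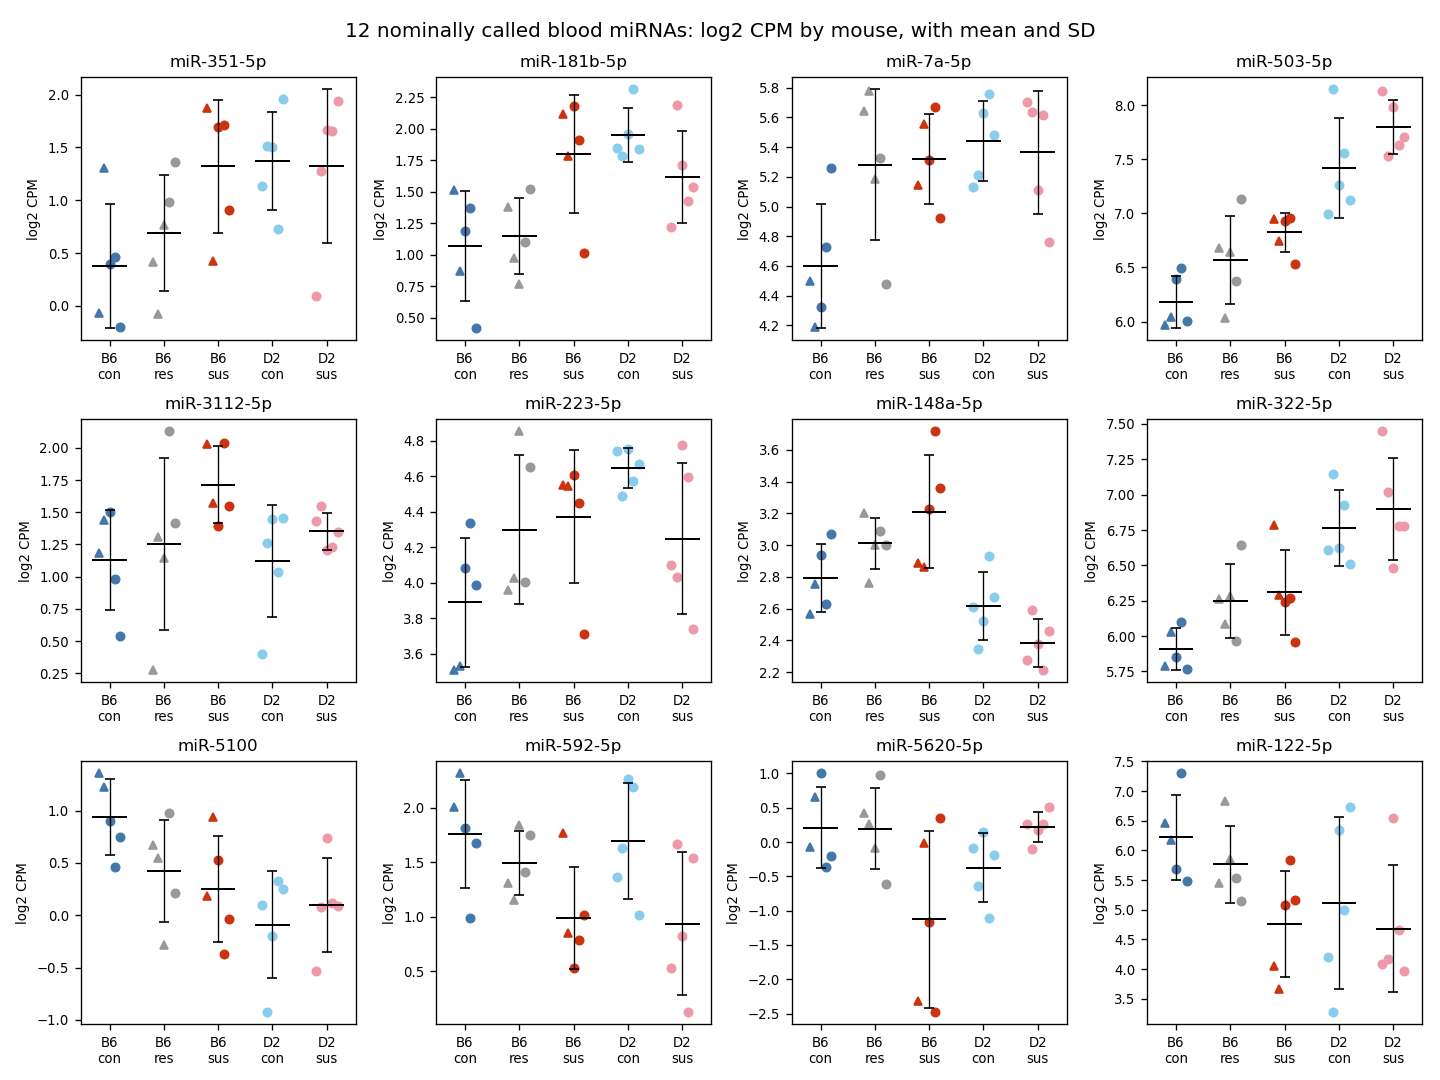
Log2 CPM (y axis) of the 12 called miRNAs in each mouse of the 5 groups (x axis), with bars for the mean ± SD of 5 mice. Triangles are mice coded EC3 and circles all others; miR-503-5p is the panel in which no B6 susceptible mouse reaches down to the B6 controls.

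miR-7a-5p, a miRNA rich in neuroendocrine and pancreatic cells, was also called higher. It is encoded in an intron of Hnrnpk on the same strand (chr13:58392779-58392886) and at a further locus between genes (chr7:78888277-78888373). Its log2 CPM was 4.50, 4.19, 4.32, 4.73 and 5.26 in controls and 5.14, 5.55, 5.31, 5.67 and 4.92 in susceptible mice. Control 5 reached into the susceptible range and susceptible 5 was the lowest of its group. In log2 terms the change was 0.72, a 1.65-fold difference (SE 0.24; limma p = 0.00659, adjusted p = 0.650; two-sided exact permutation test p = 0.0238), from 198.2 reads on average to 339 reads. It was 1.00 within EC3 and 0.53 within EC4, and the call held in all 23 alternatives. The host transcript Hnrnpk had a log2 change of -0.03 in the mRNA libraries and was not called.

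miR-7b-5p has the same seed as miR-7a-5p and differs from it at 1 of the 23 positions compared (A10U, counted from the 5′ end with the base of miR-7a-5p first), so reads of the pair could be confused. Its mean log2 change of 0.73 had an SE of 1.19 (two-sided exact permutation test, p = 0.976), and susceptible 1 alone lay above the controls. miR-7a-5p kept its call without that mouse.

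miR-181b-5p belongs to a family known from lymphocyte development and is encoded at chr1:137966639-137966718, in an exon of the lincRNA A430106G13Rik, and at chr2:38853830-38853918, opposite to Nr6a1. It measured, in log2 CPM, 1.51, 0.87, 1.19, 1.37 and 0.42 in controls and 2.12, 1.78, 2.18, 1.91 and 1.02 in susceptible mice. Susceptible 1 to 4 exceeded every control and susceptible 5 did not. The log2 change was 0.73 (SE 0.25; limma p = 0.00842, adjusted p = 0.650; two-sided exact permutation test p = 0.0397) on 16.2 reads in controls and 30 reads in susceptible mice. miR-181d-5p, which differs from it by C12U alone over 23 positions, was more abundant (7.97 log2 CPM in controls against 1.07), and reads of the pair could be confused. The log2 change of miR-181d-5p was -0.03.

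miR-223-5p is the minor strand of the hairpin whose other strand is a hallmark of neutrophils and monocytes (chrX:96242817-96242926). In log2 CPM it read 3.50, 3.53, 4.08, 4.34 and 3.99 in controls and 4.55, 4.54, 4.61, 4.45 and 3.71 in susceptible mice. Susceptible 1 to 4 lay within a narrow band above all controls while susceptible 5 lay among the controls. The difference was a log2 change of 0.49 (SE 0.23; limma p = 0.0440, adjusted p = 0.980; two-sided exact permutation test p = 0.0952), with 1.03 within EC3 and 0.12 within EC4. The call was lost in 14 of 23 alternatives, among them each fit without control 1 (0.39), control 2 (0.40), control 5 (0.51), susceptible 1 (0.44), susceptible 2 (0.44), susceptible 3 (0.43) or susceptible 4 (0.47). The 12 neutrophil genes measured in the mRNA libraries of the same mice had a median log2 change of 0.29 and none was called.

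miR-148a-5p, the minor strand of a hairpin that is active in B cells and liver (chr6:51269812-51269910), ranged from 2.57 to 3.07 log2 CPM in controls with a median of 2.76 and from 2.86 to 3.72 in susceptible mice with a median of 3.23. The groups overlapped in the middle of that range. Between the groups the log2 change was 0.42 (SE 0.18; limma p = 0.0254, adjusted p = 0.951; two-sided exact permutation test p = 0.0556), and the call was lost in 8 of 22 alternatives. These were the salivary gland term (0.34), the level of those transcripts as a covariate (0.33), quantile normalization (0.36), the fit to the B6 control and susceptible libraries alone (0.42), and the fits without control 1 (0.36), control 4 (0.38), susceptible 4 (0.29) or susceptible 5 (0.38). miR-3112-5p, encoded in an exon of Cstf2 (chrX:134075316-134075397), was counted with 12 to 34 reads. Its log2 change was 0.59 (SE 0.28; limma p = 0.0492, adjusted p = 0.980; two-sided exact permutation test p = 0.0317), and it was no longer called in 12 of 22 alternatives, among them the fits without control 1 (0.60), control 4 (0.55), control 5 (0.44), susceptible 1 (0.51), susceptible 2 (0.62), susceptible 4 (0.50) or susceptible 5 (0.63).

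Of the 4 miRNAs called lower, miR-122-5p was the most abundant. miR-122 is the dominant miRNA of hepatocytes and its level in the circulation is widely used as a sign of liver release. Its log2 CPM was 6.45, 6.17, 5.68, 7.30 and 5.49 in controls and 4.06, 3.66, 5.08, 5.85 and 5.17 in susceptible mice. Every susceptible mouse but susceptible 4, which lay within the control range, was below the lowest control. The mean fell from 6.22 ± 0.72 to 4.76 ± 0.89 (SD, n = 5 each), a log2 change of -1.46 (SE 0.58; limma p = 0.0184, adjusted p = 0.939; two-sided exact permutation test p = 0.0238). Reads averaged 647.8 in controls and 258.8 in susceptible mice. The log2 difference was -2.46 within EC3 and -0.79 within EC4. It was -0.55 among mice with salivary gland transcripts and -2.98 among those without, where susceptible 2, the lowest of all, stood alone. Without control 4 the log2 change was -1.19 and without susceptible 2 it was -1.18, and in neither case was miR-122-5p called.

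No other liver miRNA was called. miR-192-5p had a log2 change of 0.11, miR-194-5p of 0.08 and miR-802-5p of -0.36, and the 4 liver miRNAs together took 0.0778% of the reads in controls and 0.0771% in susceptible mice (two-sided exact permutation test, p = 0.873). Averaged as log2 values, in which each member counts alike, the 4 differed by -0.41 (two-sided exact permutation test, p = 0.0159), a mean in which miR-122-5p had by far the largest change; 2 of the 4 had the higher mean in susceptible mice. Only 1 of 12 hepatocyte genes, Trf, which encodes transferrin, was measured in the mRNA libraries. Its level was 4.85, 21.7, 8.15, 13.6 and 5.07 CPM in controls and 6.23, 5.16, 3.40, 4.99 and 3.42 CPM in susceptible mice. It was called lower with a log2 change of -0.996 (limma, adjusted p = 0.968). Without control 2, which had the highest Trf level, no gene of any list was called, Trf included. Liver transcripts beyond these were not analysed, and their part in the lower miR-122-5p was not tested.

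miR-592-5p, encoded within Grm8 on the same strand (chr6:27936655-27936750), had log2 CPM of 2.01, 2.32, 1.82, 0.99 and 1.67 in controls and 1.77, 0.85, 0.53, 0.79 and 1.02 in susceptible mice. Controls 4 and 5 lay among the susceptible mice, and susceptible 1 and 5 among the controls. This gave a log2 change of -0.77 (SE 0.32; limma p = 0.0250, adjusted p = 0.951; two-sided exact permutation test p = 0.0397) on 26.8 and 16.2 reads, and the call was lost with the salivary gland term (-0.66) and without control 1 (-0.71), control 2 (-0.63) or susceptible 3 (-0.66).

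miR-5620-5p, opposite to an intron of Clcn4 (chr7:7298891-7298946), was counted with only 1 to 14 reads per library. It measured, in log2 CPM, -0.07, 0.66, 1.00, -0.36 and -0.20 in controls and -2.32, -0.02, -1.16, -2.48 and 0.35 in susceptible mice. Susceptible 1, 3 and 4 lay below all controls and the other two lay among them. In log2 terms the change was -1.33 (SE 0.47; limma p = 0.00870, adjusted p = 0.650; two-sided exact permutation test p = 0.0873). It was called in all 22 alternatives that tested it, and the low-value filter left it out. The difference was -1.81 among mice with salivary gland transcripts and -0.09 among those without, where susceptible 2 stood alone. miR-5100, in an intron of Mief2 (chr11:60728663-60728726), averaged 14.6 reads in controls and 10 reads in susceptible mice. Its log2 change was -0.69 (SE 0.32; limma p = 0.0431, adjusted p = 0.980; two-sided exact permutation test p = 0.0556), and it lost its call in 9 of 22 alternatives, among them the salivary gland term (-0.59) and the fits without control 1 (-0.59), control 2 (-0.62), control 3 (-0.70), susceptible 1 (-0.67), susceptible 4 (-0.54) or susceptible 5 (-0.62).

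**Figure D3:**
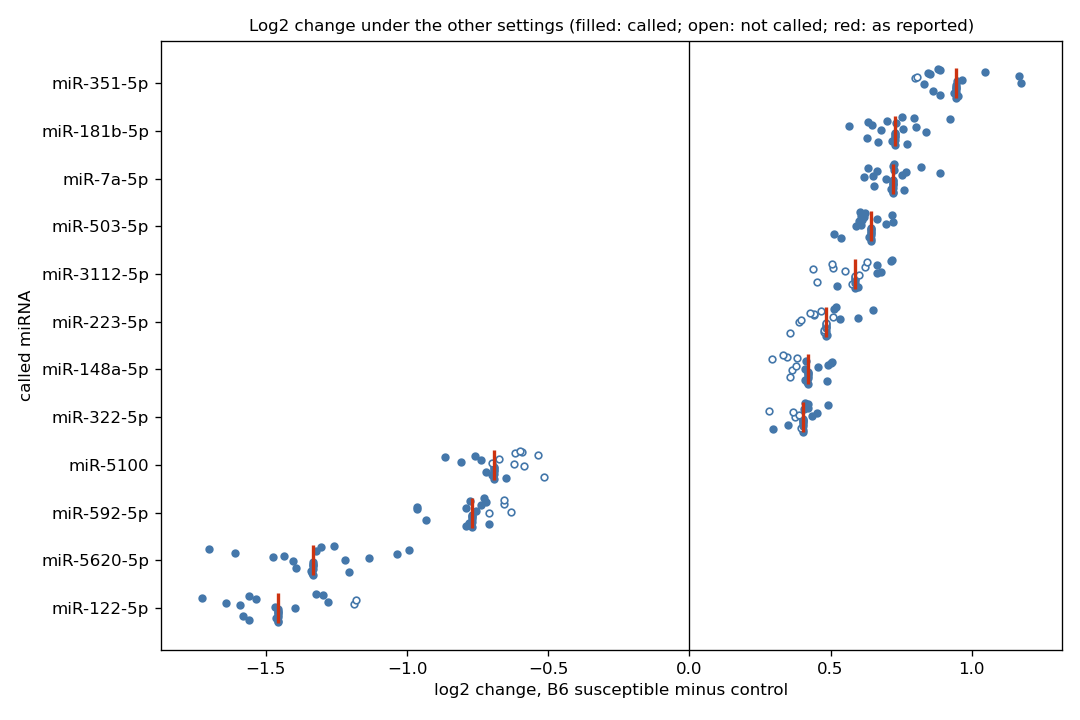
Log2 change from control to susceptible B6 mice (x axis) for the 12 called miRNAs (y axis), with a red bar at the value as reported and a point for each other processing setting. Filled points were called and open points were not; miR-503-5p, miR-7a-5p, miR-181b-5p and miR-5620-5p have filled points only.

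The miRNAs nearest to a call, after miR-542-5p, were miR-669c-5p (log2 change 0.42), miR-128-1-5p (0.41), miR-5619-5p (-0.89) and miR-701-5p (0.63), each with a limma adjusted p of 0.980. In 3 of 299 miRNAs (1%) there was no overlap between susceptible and control mice. The number was 1 after quantile normalization, and with fewer mice to overlap it was 5 without control 5, 6 without control 2 or susceptible 4, 9 without susceptible 1 and 10 without susceptible 5. With all 10 mice these were, beside miR-503-5p, miR-872-5p, with a log2 change of -0.23 (limma, adjusted p = 0.980), and miR-3068-5p, with a log2 change of -0.26 (limma, adjusted p = 0.980). Both lay lower in every susceptible mouse than in every control and neither was called. miR-872-5p ran from 8.19 to 8.31 log2 CPM in controls and from 7.88 to 8.16 in susceptible mice.

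Of the 11 called miRNAs with a sequence, 5 shared their seed with other measured miRNAs, 10 in all, and none of these 10 was called; over all miRNAs 4.01% were called, so a count of 0 in 10 is near the background. Among the 253 miRNAs with a sequence there were 211 seeds, of which 23 were held by more than 1 miRNA. miR-322-5p shares the seed AGCAGCA with miR-15a-5p, miR-15b-5p, miR-16-5p, miR-195a-5p and miR-497a-5p, a family known for restraining the cell cycle and survival genes. None of these 5 was called, 2 had the higher mean in susceptible mice, and their median log2 change was -0.13. miR-16-5p had the highest at 0.37 (SE 0.22; two-sided exact permutation test p = 0.0635), and miR-497a-5p the lowest at -0.28 (SE 0.18; two-sided exact permutation test p = 0.0397). These relatives were also more abundant: miR-15b-5p stood at 15.1 log2 CPM and miR-15a-5p at 12.9 in controls, against 5.91 for miR-322-5p. The seed of miR-503-5p, AGCAGCG, differs from that of miR-322-5p by A8G, and the pair differ at 11 of 22 positions in all.

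In the smaller seed groups, miR-351-5p shares its seed with miR-125a-5p, which had a log2 change of -0.02 and was far more abundant (7.34 log2 CPM in controls against 0.38). miR-148b-5p, with the seed of miR-148a-5p, had a log2 change of -0.06. miR-181c-5p and miR-181d-5p had log2 changes of -0.21 and -0.03, beside 0.73 for miR-181b-5p. Whether a called miRNA differed from its relatives was not tested.

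**Figure D4:**
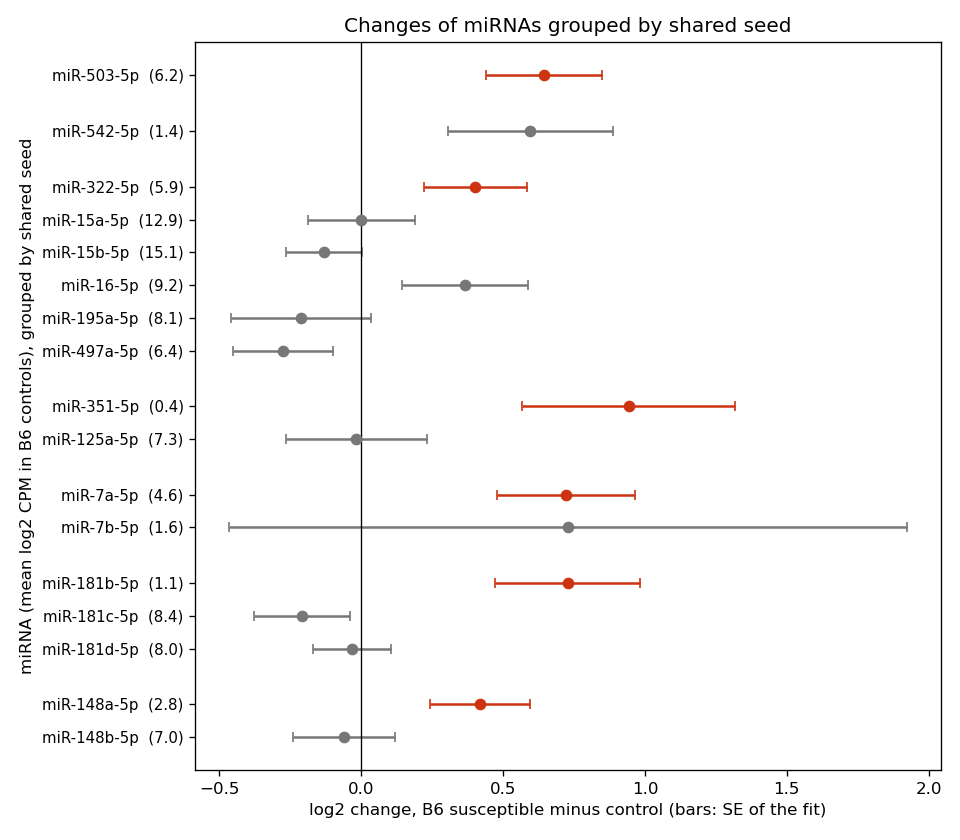
Log2 change from control to susceptible B6 mice with its SE (x axis) for called miRNAs and the miRNAs that share their seed (y axis), grouped by seed, with called miRNAs in red and the control mean in log2 CPM in parentheses. Also shown is miR-542-5p, a member of the X-linked cluster that was not called and is no seed relative of a called miRNA. The relatives lie between -0.28 and 0.73, with miR-16-5p, at 0.37, beside miR-322-5p and miR-7b-5p, with an SE of 1.19, beside miR-7a-5p.

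The miRNAs that mark blood cell types, from lists of known markers, took similar shares of the reads in both groups. The 4 measured erythroid miRNAs took 38.5% in controls and 38.9% in susceptible mice (two-sided exact permutation test, p = 0.881). The 4 myeloid miRNAs took 10.7% and 9.99% (two-sided exact permutation test, p = 0.159, adjusted over 7 lists p = 0.426). Of these shares miR-21a-5p alone was 10.1% and 9.51%, so they say little about the other members. Among the 4, miR-223-5p was called higher. The 3 lymphoid miRNAs took 0.0451% and 0.0381%, and the 6 platelet and endothelial miRNAs 0.272% and 0.237%, and neither difference exceeded the spread between mice (two-sided exact permutation tests, p = 0.690 and p = 0.524). miR-150-5p, the main miRNA of mature lymphocytes, ranged from 7.98 to 9.64 log2 CPM in controls and from 7.35 to 9.17 in susceptible mice. The only measured muscle miRNA, miR-499-5p, took 0.00525% and 0.00611% (two-sided exact permutation test, p = 0.183), and none of the 8 listed brain miRNAs was measured.

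The mRNA libraries of the same mice gave a separate view of the cell types. Of 13084 genes, 589 were called between susceptible and control mice (4.5%), 390 higher (2.98%) and 199 lower (1.52%), and none passed an adjusted p of 0.05 (limma; 610, or 4.66%, had an unadjusted p under 0.05). With a mouse left out the number called ranged from 293 without susceptible 3 to 1060 without susceptible 2, with 348 without control 2 and 921 without susceptible 4. Platelet genes were the list with genes called higher. All 12 had the higher mean in susceptible mice, 9 were called higher, and their median log2 change was 0.87, beside 0.02 for all genes. Itga2b, a subunit of the fibrinogen receptor, had a log2 change of 0.90 (SE 0.42; limma, adjusted p = 0.968), and Pf4, a granule chemokine, one of 0.65 that was not called.

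The summed level of the 12 platelet genes was 5361, 2100, 6217, 7721 and 3996 CPM in controls and 10549, 5813, 14178, 5028 and 8530 CPM in susceptible mice, with Ppbp the most abundant. Control 2 was the lowest and susceptible 1, 3 and 5 were above all controls, while susceptible 2 and 4 lay among the controls. The means were 5079 and 8820 CPM. A two-sided exact permutation test on the log2 of the summed levels gave p = 0.0952. The number of calls moved with single libraries: counted over all lists, 10 genes were called with every mouse, and 0 without control 2, 2 without susceptible 1, 4 without control 5 and 4 without susceptible 3, while it rose to 13 without susceptible 2 or susceptible 4 and to 14 without control 4. With the salivary gland term 6 platelet genes were called, Itga2b not among them, and the median log2 change of the 12 was 0.89. No platelet miRNA of the list was called, and the part of platelets in the called miRNAs was not tested.

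No gene of the other blood cell lists was called. With the salivary gland term 1 neutrophil gene, the chemokine receptor Cxcr2 (log2 change 0.80), and 1 T cell gene, the receptor subunit Cd3e (1.01), were called higher (limma, adjusted p = 1.00 for each). The median log2 change was 0.07 over 11 erythroid genes, -0.16 over 10 monocyte genes, -0.21 over 10 B cell genes, -0.02 over 11 T cell genes and -0.29 over 8 natural killer cell genes, all 8 of which had the lower mean in susceptible mice. None of 17 measured genes of the miRNA machinery, such as the nucleases and Argonautes that make and load miRNAs, was called, with a median log2 change of 0.08.

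**Figure D5:**
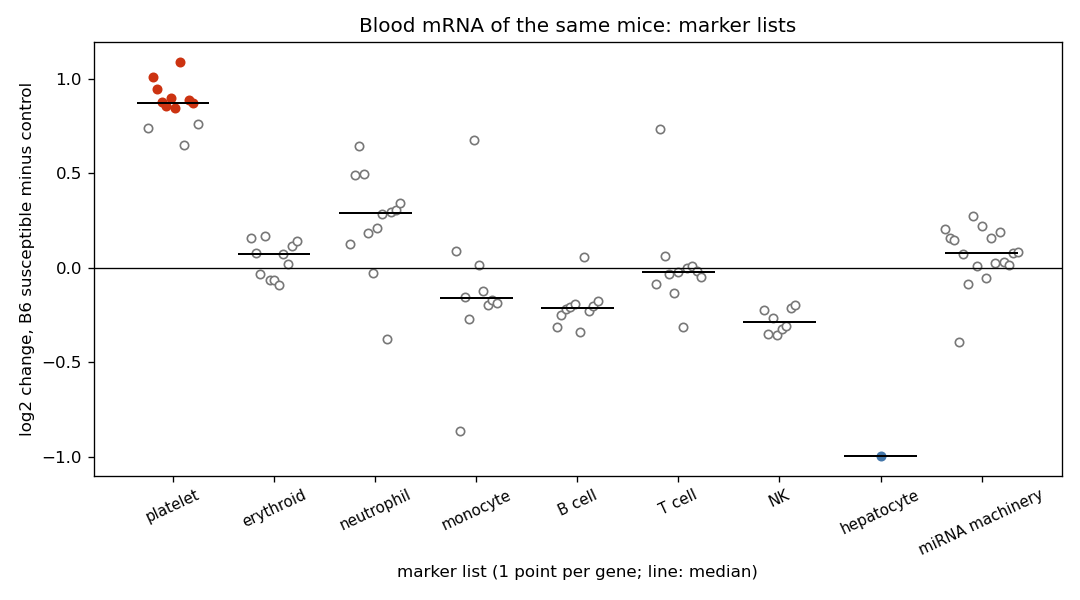
Log2 change from control to susceptible B6 mice (y axis) of single genes in the blood mRNA libraries, by marker list (x axis), with filled points for called genes and a line at each median. All 12 platelet genes lie above 0, with a median of 0.87, Trf is the single hepatocyte gene, and the medians of the other lists lie between -0.29 and 0.29.

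The other blood groups place these differences. The resilient comparison uses the same 5 control mice, so its values stand beside those above without being independent of them. In resilient mice 13 of 299 miRNAs were called against controls (4.35%), and of the 12 miRNAs described here only miR-7a-5p was among them, with a log2 change of 0.68 (limma, adjusted p = 0.767). miR-503-5p had a log2 change of 0.39 (limma, adjusted p = 0.949), miR-322-5p of 0.34 (limma, adjusted p = 0.949), miR-122-5p of -0.45 and miR-181b-5p of 0.08 in resilient mice. Set directly against resilient mice (9 of 299 called, 3.01%), susceptible mice had more miR-181b-5p (log2 change 0.65) and less miR-5620-5p (log2 change -1.32; limma, adjusted p = 0.993 for each), while the other 10 were not called.

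D2 mice share no library with the B6 comparison. For 2 of the 10 D2 mice the phenotype in the sample labels and the phenotype code in the column name disagreed. The labels were followed here, and values by the column names are given below. By the labels 26 of 299 miRNAs were called between susceptible and control mice (8.7%), and of the 12 only miR-592-5p was among them, lower in both strains (log2 change -0.76 in D2; limma, adjusted p = 0.539). miR-503-5p had a log2 change of 0.38 in D2 (limma, adjusted p = 0.590). The difference between the strains in the response was called for 13 of 299 miRNAs (4.35%), 5 of them among the 12. The number was 21 with sample weights, 4 with only the miRNAs at a mean log2 value of at least 4, and 10 to 23 with a mouse left out, the highest without D2 susceptible 1. Since the 12 were chosen for their B6 difference, which is part of this contrast, their count is partly set by that choice and is given as a description.

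The 2 phenotypes in question changed the D2 values. With the phenotypes of the column names, again 5 control and 5 susceptible mice, 37 of 299 miRNAs were called in D2 (12.4%) and 20 for the strain difference (6.69%). In D2 3 then passed an adjusted p of 0.05 by limma, against 0 by the labels (26 with an unadjusted p under 0.05 and the fold). These were miR-181c-5p (log2 change -0.60, adjusted p = 0.0306), miR-181d-5p (-0.52, adjusted p = 0.0342) and miR-467c-5p (-0.72, adjusted p = 0.0342), all lower in susceptible mice. miR-181c-5p and miR-181d-5p carry the seed of miR-181b-5p. miR-503-5p had a log2 change of 0.63 in D2 by the column names and was called.

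By the labels the D2 log2 changes of the 5 with a called strain difference were -0.33 for miR-181b-5p, -0.08 for miR-7a-5p, -0.23 for miR-148a-5p, -0.40 for miR-223-5p and 0.60 for miR-5620-5p, none of them called. By the column names they were -0.49, -0.25, -0.33, -0.21 and 0.38, in the same order. The D2 fold changes that the authors print for miR-181b and miR-148a equal, after rounding, those by the column names and not those by the labels. The strain difference in log2 change was 1.06 (SE 0.36) for miR-181b-5p, 0.80 (SE 0.34) for miR-7a-5p, 0.65 (SE 0.25) for miR-148a-5p, 0.88 (SE 0.32) for miR-223-5p and -1.93 (SE 0.66) for miR-5620-5p. By limma the p-values were 0.00687, 0.0287, 0.0150, 0.0116 and 0.00743, and the adjusted p-values lay between 0.691 and 0.779. All 5 remained called with the phenotypes of the column names. For miR-122-5p the strain difference was -1.03 (SE 0.82; limma, adjusted p = 0.918), so a response limited to B6 was not shown.

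In a brain region of other B6 mice, the bed nucleus of the stria terminalis, miRNAs bound to Argonaute 2 were sequenced from pools of 3 mice, with 3 susceptible and 5 control pools. Of 788 entries 37 were called between susceptible and control pools (4.7%). Of the 2 entries of miR-181b-5p, 1 was called higher there (log2 change 0.30, limma, adjusted p = 0.884) and the other was not (0.44). miR-351-5p (-0.19), miR-322-5p (-0.07), miR-592-5p (0.01), miR-148a-5p (-0.07) and miR-122-5p (0.03) had log2 changes that were not called. Nor were the 2 entries of miR-7a-5p (-1.21, SE 0.91, and -1.95, SE 1.41) or miR-5620-5p (0.90, SE 1.01). The values of these 7 miRNAs were opposite in sign to those in blood. Several lay near 0 beside their SE, which was 0.15 for miR-592-5p, 1.21 for miR-122-5p, 0.30 for miR-148a-5p and 0.16 for miR-322-5p. miR-542-5p, not called in blood or brain, had a log2 change of 0.38 (SE 0.71), of the same sign as in blood. The brain pools and the blood came from different animals, so the values are given side by side only.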

How the data were processed

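Small RNA libraries were made from total RNA of trunk blood with the NEXTflex Small RNA-Seq Kit v3, 1 library per mouse. The authors trimmed adapters, assigned reads to miRBase miRNAs with miRDeep2 (Bowtie 1.1.1, GRCm38), kept miRNAs with at least 1 CPM in at least 6 libraries and deposited voom log2 CPM values. The blood mRNA and Argonaute 2 tables hold deposited log2 CPM values of the same kind. Here 2 to the power of each value, times the library size that fits, minus 0.5, gave whole reads (tolerance 1e-04) in all 3 tables.

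limma 3.58.1 (R 4.3.3) was fitted to the deposited values of all 25 libraries with a mean-variance trend. Contrasts were called at p under 0.05 and at least 1.2-fold, and p-values were adjusted by Benjamini-Hochberg over each table; the fit was tested on simulated data. Shares of lists and single miRNAs were also compared by exact permutation over the 10 mice. The Argonaute 2 mRNA table was not used here.

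Named miRNAs are all those called, the 10 most abundant in controls, the 5 next by p, and members of fixed lists; seed relatives of called miRNAs were added. The members and lists were chosen with earlier results of these data known. miR-872-5p, miR-3068-5p, miR-7b-5p and the salivary gland list were chosen after their values were seen. Other settings were tried for the trend, weights, scaling, low-value filter, samples, name code, D2 phenotypes and each mouse left out. Sequences and loci came from RefSeq, and overlapping genes from the GENCODE annotation of the same build.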

Additional observations from a re-analysis of the deposited data

Results flagged for a closer look

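For 3 miRNAs a value lay far from the rest of its group among 54 groups of 5 mice that were examined, of which chance flags about 1 in 20. Susceptible 5 was the lowest of its group for miR-223-5p at 3.71 log2 CPM. Susceptible 1 was the lowest of its group for miR-128-1-5p at 1.23 log2 CPM and the highest for miR-7b-5p at 7.70 log2 CPM.

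The response differed between the strains for 5 of the 17 miRNAs examined, by an interaction term in limma at an unadjusted p under 0.05. The 17 were chosen by their p in B6, which is part of the strain difference, so this count is partly set by that choice; over all 299 miRNAs 4.35% were called and no adjusted p was under 0.691. The B6 log2 change minus the D2 log2 change was 1.06 for miR-181b-5p, 0.80 for miR-7a-5p, 0.88 for miR-223-5p, 0.65 for miR-148a-5p and -1.93 for miR-5620-5p.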

How the results depend on the processing

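The number of miRNAs called between B6 susceptible and control mice was 12, and 8 to 13 when each mouse was left out in turn. It was 25 with sample weights and 5 with only the miRNAs at a mean log2 value of at least 4, where fewer were tested. It was 0 at an adjusted p of 0.05 under every alternative run. Of the 12, 4 were called in every alternative that tested them (miR-503-5p, miR-7a-5p, miR-181b-5p and miR-5620-5p). Of these 4, miR-181b-5p and miR-5620-5p fell below the low-value filter and were not tested in that alternative. None of the 12 changed direction, and 2 were lost in most (miR-223-5p and miR-3112-5p). The strain difference was called for 13 miRNAs, for 21 with sample weights, 4 with the low-value filter, 20 with the D2 phenotypes of the column names, and 10 to 23 with a mouse left out. The number without overlap between the groups was 3, 1 after quantile normalization, and 3 to 10 with a mouse left out. The strain difference of miR-592-5p, -0.01, became 0.46 with sample weights and 0.00214 with the column phenotypes, and ranged from -0.22 to 0.17 with a mouse left out.

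Differences in list shares (susceptible minus control, in percent of reads) changed sign for 4 lists. With a mouse left out the erythroid difference ranged from -1.34 to 1.26, the lymphoid from -0.0119 to 0.0043 and the liver from -0.00248 to 0.00224. On the mean log2 scale the myeloid difference, -0.74 by share, was 0.0208. The muscle difference, of miR-499-5p alone, kept its sign, from 0.000661 to 0.00132. By exact permutation it had p = 0.183 with every mouse (adjusted over 7 lists p = 0.426) and p = 0.0238 without control 2. On the mean log2 scale the liver difference was -0.41 (exact permutation p = 0.0159), against p = 0.873 by share. In that mean miR-122-5p, called in the same mice, had by far the largest change, so it largely restates that call. The number of list genes called in the blood mRNA was 10, and 0 to 14 with a mouse left out, as given above. Causes were not tested.

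Fits by count models on the recovered reads had been listed but were not run, although whole reads had been recovered. Single mice could not be paired for blood because the labels give the groups no shared replicate numbers. The name codes EC3 and EC4 were shared by the B6 groups, and a fit with the code as a block was run. In the Argonaute 2 pools the replicate numbers did not pair the samples (correlations of deviations from -0.10 to 0.096), and the fit with a replicate block called 37 entries, the same number as without it, against 31 to 51 with a pool left out. Depth limits the rare miRNAs most: miR-5620-5p rests on 1 to 14 reads per library.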
